A study of Mus musculus with 6 samples.

Results

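The genes described here encode the enzymes that write and remove chemical marks on histones and DNA in N9 microglia, an immortalized cell line from mouse brain, together with the BRD genes, most of which encode readers of acetylated lysine. They were chosen by name and biotype: protein-coding genes whose symbol starts with Kmt, Ezh, Setd, Kdm, Prmt, Kat, Hdac, Sirt, Brd, Dnmt or Tet, followed by a number except for Setd. This took 88 of the 54532 genes in the count table, by a rule that reads names and biotypes and no expression value. A further 9 names match but belong to genes that are not protein-coding, and these were left out. RNA-seq was performed on 3 samples of cells stimulated with lipopolysaccharide (LPS), the bacterial outer membrane component that activates Toll-like receptor 4, at 1 µg/ml for 6 h, and on 3 samples of unstimulated control cells. Both groups are the same cell line with no genetic change named in the labels, and LPS is the difference that the labels name. Whether the groups differed in anything else was not tested. The comparison is in cultured cells of 1 line. The labels do not say whether the 3 samples of a group came from separate cultures, and p-values then measure the spread between these samples, which may be technical.

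Histone lysine methyltransferases and demethylases set marks that go with transcription, such as H3K4 methylation, or with silencing, such as H3K9 and H3K27 methylation. Acetyltransferases and deacetylases set histone acetylation, which bromodomain proteins bind, and DNA methyltransferases and TET dioxygenases add and oxidise methyl groups on cytosine. In macrophages and microglia these enzymes are known to act with NF-κB and interferon factors at inflammatory genes. The H3K27 demethylase Kdm6b is known as an LPS-induced gene in macrophages.

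The libraries held between 16363767 and 17956772 counted reads, so 3 counts corresponded to between 0.161 and 0.19 CPM, the unit of level used here (counts scaled to a common TMM-normalised library size). The response to LPS was present, since 6 of 6 check genes (Tnf, Il1b, Cxcl10, Ifit1, Nfkbia and Ccl5) were up-regulated, with log2 fold changes from 1.67 to 7.07. Of 15 microglia markers 12 could be tested, and their summed level was 2230 to 2300 CPM in the control libraries and 2410 to 2470 CPM in the LPS libraries. Of the 12, 3 were called higher (25.0%, against 18.7% of all tested genes) and 4 lower (33.3%, against 15.7%), with a median log2 fold change of -0.08. Among the defining markers Csf1r and Spi1 were abundant, whereas P2ry12 had at most 6 counts and Sall1 at most 1 count in any library. The libraries differed in genes known from liver and connective tissue, and the source of these reads was not tested. A list of 15 hepatocyte genes, led by Alb with 155 and 292 counts in control replicates 2 and 3 and 2 in control replicate 1, summed to 0.467 to 27.9 CPM in the control libraries and 0.317 to 0.852 CPM in the LPS libraries. Fibroblast collagen genes such as Col1a1 had 70 and 49 counts in control replicates 1 and 3, 40 in LPS replicate 1, and at most 3 in the other libraries. Some lists for other cell types differed between the groups. The neuron list summed to 4.78 to 5.55 CPM in control and 11.9 to 15.1 CPM in LPS libraries, with Tubb3 rising by 1.67 on the log2 scale and Rbfox3 at most at 1 count. The endothelium list summed to 0.34 to 0.914 and 1.65 to 2.32 CPM, with Kdr rising by 2.24 and Cldn5 at 0 counts. The oligodendrocyte list, nearly all of it Mbp, summed to 33.5 to 40.0 and 28.2 to 29.6 CPM, with Mog at most at 1 count. The astrocyte list summed to 209 to 211 and 193 to 205 CPM, largely from Aldoc and Gja1, with Aqp4 at most at 2 counts. The part of these RNAs in the results below was not tested, and where the call of a named enzyme or partner gene is lost without a library, that is given beside it.

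Of the 88 genes, 83 had enough reads to be tested among 12296 genes in all. A gene was called up- or down-regulated at an adjusted p under 0.05 in edgeR's quasi-likelihood test. With LPS 16 of the 83 genes were up-regulated (19.3%), against 18.7% of all tested genes, and 13 were down-regulated (15.7%), against 15.7% of all tested genes. Without LPS replicate 2 the number of up-regulated genes was 10, against 15.4% of all genes tested in that fit. Both shares lay near the background, so a change in expression was about as common among these enzymes as among other genes. The median log2 fold change was -0.02, against 0.0036 over all tested genes. With upper-quartile scaling, which shifted the median over all genes to -0.0449, the split was 13 up-regulated and 19 down-regulated, and over the 12296 tested genes it was 1845 and 2497. The LPS libraries lay above every control library for 18 genes (21.7%, against 23.8% of all tested genes) and below every control library for 19 (22.9%, against 21.5%).

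The changes were small. None of the 83 genes passed the study's threshold of an absolute log2 fold change over 1.5 with edgeR or DESeq2, a threshold that 2.65% of all tested genes passed, whereas 36 (43.4%, against 42.8% of all tested genes) had an unadjusted p under 0.05 and DESeq2 called 24 (28.9%, against 28.9%). Among the 29 called genes the median absolute log2 fold change was 0.29, against 0.37 over all called genes, 5 (17.2%, against 28.5% of all called genes) moved by over 1.5-fold and 1, Hdac7 (3.45%, against 14.2%), by over 2-fold. Log2 fold changes ran from -0.60 for Hdac5 to 1.25 for Hdac7. Since these are bulk samples, a lower level in fewer cells and less RNA per cell cannot be told apart. A total of 54 genes (65.1%) were not called in either direction. The other 5 genes were below the filter on low counts. Prmt8 had 0 counts in every library, Dnmt3c had 1 count in LPS replicate 3 alone, and Tet1, Kdm4d and Hdac11 had at most 2, 4 and 3 counts in any library.

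**Figure D1:**
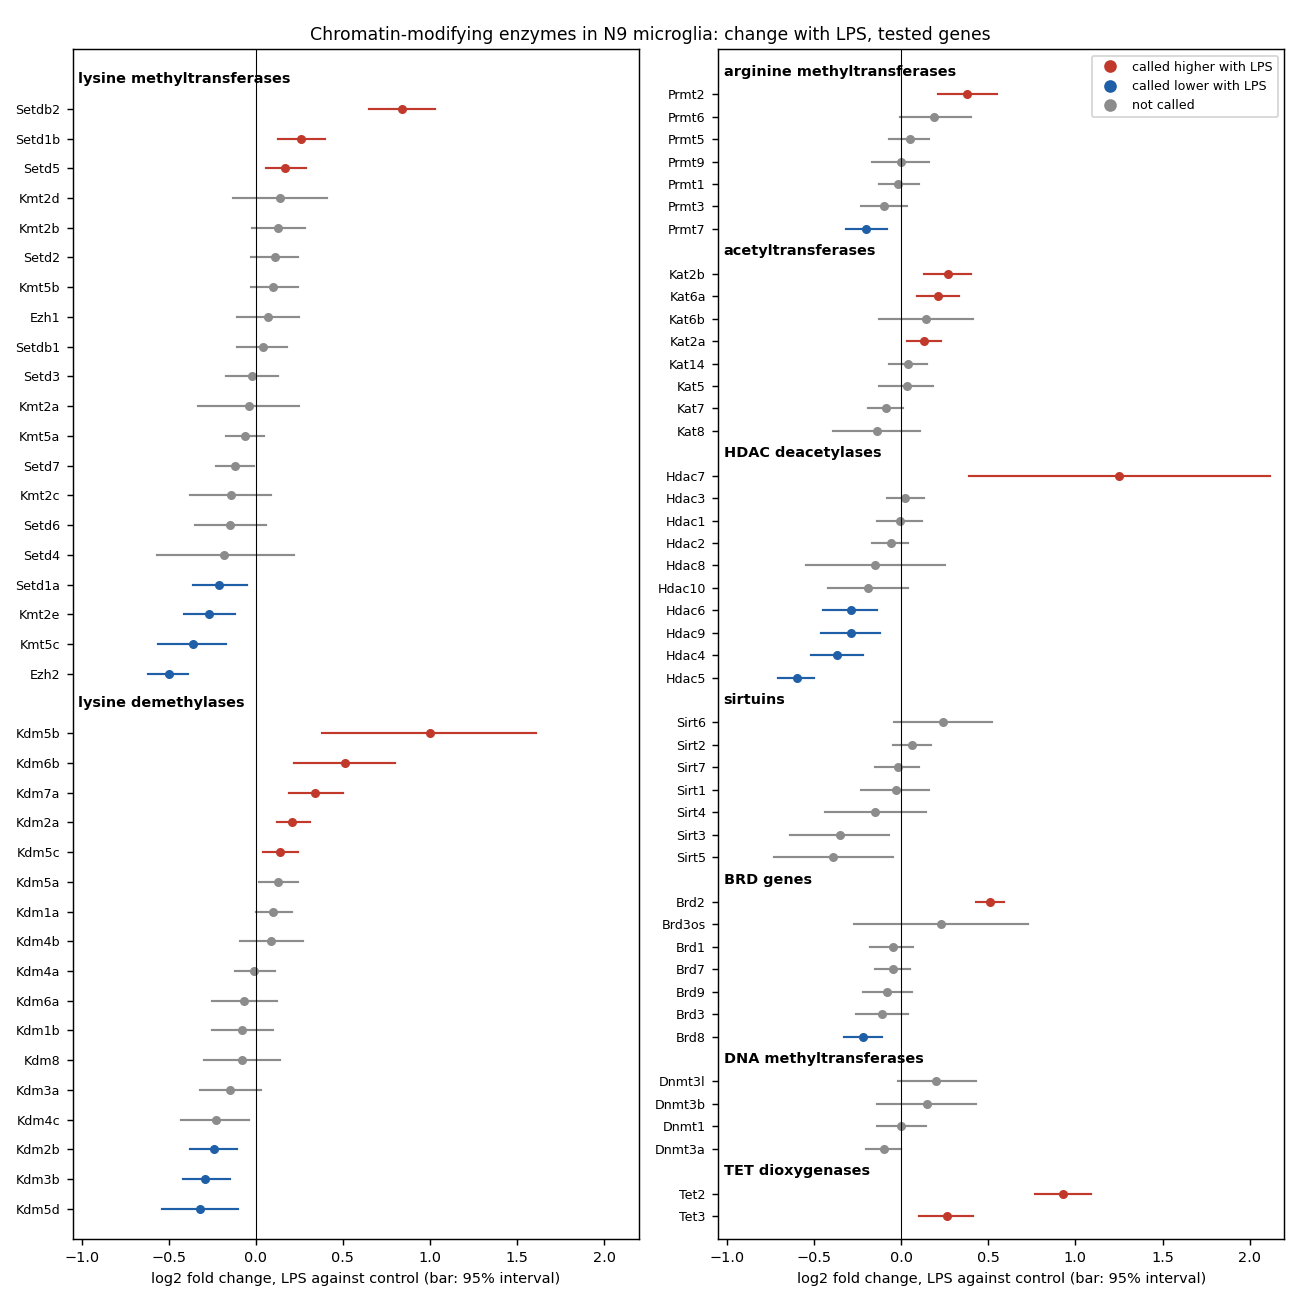
Log2 fold change of LPS against control (horizontal axis) for the 83 tested genes except 1 that is not reported singly, by enzyme class, with bars for 95% intervals of the edgeR fit; red marks genes called higher, blue called lower and grey not called. Setdb2, Tet2 and Brd2 stand to the right with short intervals, Hdac7 and Kdm5b with long ones, and Hdac5 and Ezh2 stand farthest to the left among called genes.

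The promoters of the 4 genes with the largest rises and the 2 with the largest falls are shown because these changed most by fold in each direction among the called genes. Hdac7 and Kdm5b are among the genes with the fewest reads and lost their calls in 5 and 3 of 15 alternative fits. Each covers 250 bases before to 50 bases after a transcript start of RefSeq on GRCm38.p6, read 5′ to 3′ on the gene's strand, and capitals mark CG dinucleotides. The windows lie at chr15:97844453-97844752 on the minus strand for Hdac7, chr1:134559928-134560227 on the plus strand for Kdm5b, chr3:133544341-133544640 on the minus strand for Tet2, chr14:59440831-59441130 on the minus strand for Setdb2, chr11:102230123-102230422 on the minus strand for Hdac5 and chr6:47594981-47595280 on the minus strand for Ezh2. Hdac7 has 4 RefSeq promoters, of which the one at the 5′ end given in the count table is printed. The Tet2 and Ezh2 starts lie 749 and 311 bases from the 5′ ends in that table, so these windows may not be the ones used in N9 cells.
The up-regulated genes had these promoters:
Hdac7: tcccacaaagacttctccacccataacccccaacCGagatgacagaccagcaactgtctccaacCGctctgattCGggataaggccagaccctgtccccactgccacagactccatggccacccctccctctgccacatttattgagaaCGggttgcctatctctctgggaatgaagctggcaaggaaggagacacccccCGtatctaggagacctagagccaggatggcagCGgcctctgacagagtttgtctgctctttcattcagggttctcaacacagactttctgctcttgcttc
Kdm5b: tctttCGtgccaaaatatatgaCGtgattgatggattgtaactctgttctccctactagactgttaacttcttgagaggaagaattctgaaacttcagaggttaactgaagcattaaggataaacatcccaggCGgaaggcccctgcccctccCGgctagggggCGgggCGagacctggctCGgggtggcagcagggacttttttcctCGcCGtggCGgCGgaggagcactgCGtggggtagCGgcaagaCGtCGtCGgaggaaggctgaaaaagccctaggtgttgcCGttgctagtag
Tet2: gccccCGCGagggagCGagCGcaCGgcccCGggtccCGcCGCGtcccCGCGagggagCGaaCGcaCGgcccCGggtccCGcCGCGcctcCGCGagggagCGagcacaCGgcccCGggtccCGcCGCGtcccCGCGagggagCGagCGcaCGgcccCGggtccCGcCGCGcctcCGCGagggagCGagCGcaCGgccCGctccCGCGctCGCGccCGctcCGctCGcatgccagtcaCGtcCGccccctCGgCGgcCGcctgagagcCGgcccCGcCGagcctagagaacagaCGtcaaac
Setdb2: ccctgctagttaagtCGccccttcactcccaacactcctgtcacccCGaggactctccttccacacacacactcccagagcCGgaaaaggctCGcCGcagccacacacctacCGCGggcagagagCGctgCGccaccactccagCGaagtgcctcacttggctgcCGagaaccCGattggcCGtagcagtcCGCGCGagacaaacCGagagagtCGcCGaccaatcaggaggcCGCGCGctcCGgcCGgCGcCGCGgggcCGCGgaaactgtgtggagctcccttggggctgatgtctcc
The down-regulated genes had these promoters:
Hdac5: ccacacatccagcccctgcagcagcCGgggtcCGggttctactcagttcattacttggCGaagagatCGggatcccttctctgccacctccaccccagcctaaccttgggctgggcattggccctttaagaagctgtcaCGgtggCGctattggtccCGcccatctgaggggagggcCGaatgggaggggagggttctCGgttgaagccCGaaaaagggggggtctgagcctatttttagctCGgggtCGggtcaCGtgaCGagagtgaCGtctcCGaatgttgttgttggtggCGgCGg
Ezh2: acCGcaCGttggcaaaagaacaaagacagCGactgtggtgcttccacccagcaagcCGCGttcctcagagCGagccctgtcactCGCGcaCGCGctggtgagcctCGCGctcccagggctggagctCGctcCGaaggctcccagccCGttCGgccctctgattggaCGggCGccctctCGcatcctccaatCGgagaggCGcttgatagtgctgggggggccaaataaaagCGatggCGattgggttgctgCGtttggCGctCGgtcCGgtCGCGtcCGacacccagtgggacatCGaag

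The 6 promoters differed in composition. Tet2 had 57 CG dinucleotides in 300 bases and a GC content of 81.3%, Ezh2 had 31, Setdb2 29, Hdac5 18, Kdm5b 17 and Hdac7 6. The median was 22 over the 98 promoters found for 69 of the 83 tested genes and 7 over 32851 RefSeq promoters, with GC contents of 63.1% and 53.8%. None of the 6 windows held a kappa B site, an interferon-stimulated response element (ISRE, searched as GAAA, any 2 bases and GAAA) or an AP-1 site (TGANTCA), each searched on both strands, so no matches overlapped in them. Over all promoters 4.51% held the kappa B site, 3.44% the ISRE and 7.81% the AP-1 site. Over the promoters of the chromatin genes the shares were 3.06%, 2.04% and 8.16%. The absence of these letters in 300 bases says nothing about enhancers or other starts.

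Among the lysine methyltransferases, the H3K9 methyltransferase Setdb2 was up-regulated and the PRC2 catalytic subunit Ezh2, which methylates H3K27, was down-regulated. All 20 genes of this class could be tested, and the 3 that rose and 4 that fell make 35.0%, against 34.3% of all tested genes called in either direction. Setdb2 (ENSMUSG00000071350, chr14:59402009-59440884 in the deposited table) was at 12.9, 14.2 and 13.0 CPM in control replicates 1 to 3 and at 23.9, 24.1 and 23.9 CPM in the LPS replicates. Every LPS library was far above every control library, and the LPS libraries were almost alike. The log2 fold change was 0.84 (SE 0.09, 95% interval 0.65 to 1.03, edgeR adjusted p = 2.53e-06), a 1.79-fold rise. Its paralog Setdb1, also an H3K9 methyltransferase, was at 59.2 ± 5.95 and 60.8 ± 0.653 CPM (mean ± SD, n = 3) and was not called (interval -0.11 to 0.18).

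Ezh2 (ENSMUSG00000029687, chr6:47530139-47595341) was at 76.3, 76.3 and 75.9 CPM in the control libraries and at 52.7, 57.0 and 51.6 CPM in the LPS libraries. The groups were well separated, with the control libraries within 1 CPM of each other. Ezh2 fell by 0.50 on the log2 scale (SE 0.05, 95% interval -0.62 to -0.39, edgeR adjusted p = 3.21e-06), 1.42-fold. Ezh1, the alternative PRC2 catalytic subunit, stood at 23.9 ± 0.572 and 25.1 ± 1.88 CPM and was not called (log2 interval -0.11 to 0.25). The list of 10 other PRC2 genes had 1 up-regulated (Aebp2, an accessory subunit) and 4 down-regulated members, beside 18.7% and 15.7% of all tested genes. These were the core subunit Suz12, which fell by 0.35, the accessory subunit Phf19, which fell by 0.24, and the histone-binding proteins Rbbp4 and Rbbp7, which fell by 0.16 and 0.13, all on the log2 scale. The Suz12 call held in all alternative fits. The calls were lost without control replicate 2 or LPS replicate 1 or 3 for Phf19 (edgeR adjusted p from 0.0685 to 0.0813), without control replicate 1 or 3 or LPS replicate 2 or 3 for Rbbp4 (0.0575 to 0.13), without control replicate 3 or LPS replicate 2 for Rbbp7 (0.0532 and 0.102), and with upper-quartile scaling (0.0555) and without control replicate 3 (0.0986) or LPS replicate 3 (0.0532) for Aebp2. Eed, the third core subunit beside Ezh2 and Suz12, was at 56.8 ± 1.48 and 60.9 ± 3.88 CPM and was not called.

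The other called lysine methyltransferases moved less. Kmt5c, which trimethylates H4K20, fell from 26.6 ± 2.2 to 20.6 ± 1.67 CPM (log2 fold change -0.36, edgeR adjusted p = 0.00619), while Kmt5a, which monomethylates the same residue, was at 268 ± 8.06 and 257 ± 17.4 CPM and was not called. The H3K4 methyltransferase genes did not move as a group. Setd1b rose from 53.5 ± 4.37 to 64.3 ± 2.29 CPM (log2 fold change 0.26, adjusted p = 0.00472) and Setd1a fell from 44.1 ± 1.74 to 38.1 ± 3.34 CPM (-0.21, adjusted p = 0.0378). In GENCODE M21, 51.8% of the exon bases of Setd1a are shared with a same-strand gene, Gm49388, which had a mean of 0 counts. The Setd1a call was lost in 5 of 15 alternative fits, with DESeq2 and without control replicate 2 or 3 or LPS replicate 1 or 2 (adjusted p from 0.0664 to 0.161 without these libraries). Kmt2e, a protein of the KMT2 family without known methyltransferase activity, fell from 58.7 ± 5.12 to 48.8 ± 2.74 CPM (-0.27, adjusted p = 0.00814). Its exons overlap those of Srpk2 on the opposite strand over 9.31% of their bases. Kmt2a, Kmt2b, Kmt2c and Kmt2d, the large subunits of the MLL complexes, were not called, with log2 intervals that together spanned -0.38 to 0.41. Leaving out a replicate 1 library changed this for 3 of them: Kmt2c was called lower without control replicate 1 (adjusted p = 0.0472), and Kmt2b (0.0392) and Kmt2d (0.05) were called higher without LPS replicate 1. Setd5 was called higher at 117 ± 4.83 and 132 ± 7.27 CPM, a call lost in 4 of 15 fits, with upper-quartile scaling (adjusted p = 0.0704) and without control replicate 1 (0.0778), LPS replicate 2 (0.0972) or LPS replicate 3 (0.0522). Setd2, which trimethylates H3K36, was not called at 127 ± 12.4 and 136 ± 4.40 CPM.

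Of 17 tested lysine demethylases 5 were up-regulated (29.4%, against 18.7% of all tested genes) and 3 down-regulated (17.6%, against 15.7%). Kdm6b (ENSMUSG00000018476, chr11:69398508-69413675), which removes H3K27 methylation, was at 9.56, 12.2 and 9.46 CPM in the control libraries and at 12.3, 15.9 and 16.2 CPM with LPS. The groups did not overlap, but control replicate 2 and LPS replicate 1 were nearly level. The log2 fold change was 0.51 (SE 0.14, 95% interval 0.22 to 0.80, edgeR adjusted p = 0.00848), a 1.43-fold rise from a low level. Kdm6a, the X-linked H3K27 demethylase, was at 32.1 ± 3.84 and 30.6 ± 0.903 CPM and was not called. Per kilobase of gene length, Kdm6a was more abundant than Kdm6b in both groups, at 3.82 against 1.5 CPM per kilobase in control cells and 3.66 against 2.13 with LPS.

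Kdm5b (ENSMUSG00000042207, chr1:134560171-134635285), an H3K4 demethylase, rose from a very low level. Counts were 19, 16 and 31 in control replicates 1 to 3 and 40, 42 and 38 in LPS replicates 1 to 3. The LPS libraries lay above the control libraries, of which replicate 3 was the highest. The log2 fold change was 1.00 (SE 0.29, 95% interval 0.38 to 1.61, edgeR adjusted p = 0.0146). The call was lost without control replicate 1, control replicate 2 or LPS replicate 2, with adjusted p-values of 0.0501, 0.0676 and 0.0563. The Kdm5 genes went different ways. Kdm5c rose from 121 ± 2.96 to 133 ± 4.98 CPM (log2 fold change 0.14, adjusted p = 0.0325), the Y-linked Kdm5d fell from 15.9 ± 1.2 to 12.7 ± 0.862 CPM (-0.32, adjusted p = 0.0264), and Kdm5a, at 68.2 ± 1.55 and 74.7 ± 3.91 CPM, was not called. Kdm5a was called higher without LPS replicate 3 (adjusted p = 0.0452). The Kdm5c call was lost in 8 of 15 alternative fits, among them those without control replicate 1, 2 or 3 or LPS replicate 2 or 3 (adjusted p from 0.0586 to 0.126). The Kdm5d call was lost in 5, with DESeq2 and without control replicate 2 or 3 or LPS replicate 1 or 3 (0.0517 to 0.109).

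Among the other demethylases, Kdm7a, which acts on H3K9 and H3K27, rose from 39.5 ± 3.49 to 50.2 ± 2.72 CPM (log2 fold change 0.34, edgeR adjusted p = 0.00183). The H3K36 demethylase genes Kdm2a and Kdm2b moved in opposite directions. Kdm2a rose from 95 ± 2.99 to 110 ± 2.30 CPM (0.21, adjusted p = 0.00197) and Kdm2b, which also belongs to a PRC1 complex, fell from 64.4 ± 4.13 to 54.4 ± 2.39 CPM (-0.24, adjusted p = 0.00585). Exons of Kdm2b overlap the opposite-strand gene Rnf34 over 5.77% of their bases. The H3K9 demethylase gene Kdm3b fell from 127 ± 11.2 to 104 ± 6.66 CPM (-0.29, adjusted p = 0.0031). Kdm1a, which removes mono- and dimethylation of H3K4, was the most abundant demethylase per kilobase at 19.5 and 21.0 CPM per kilobase and was not called, except without LPS replicate 1 (adjusted p = 0.046). None of the 3 tested Kdm4 genes was called by edgeR with TMM scaling or by DESeq2, with 1 (Kdm4c) at an unadjusted p under 0.05, beside 34.3%, 28.9% and 42.8% of all tested genes by these measures. Kdm4c was called lower with upper-quartile scaling (adjusted p = 0.0277) and without control replicate 3 (0.0261).

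**Figure D2:**
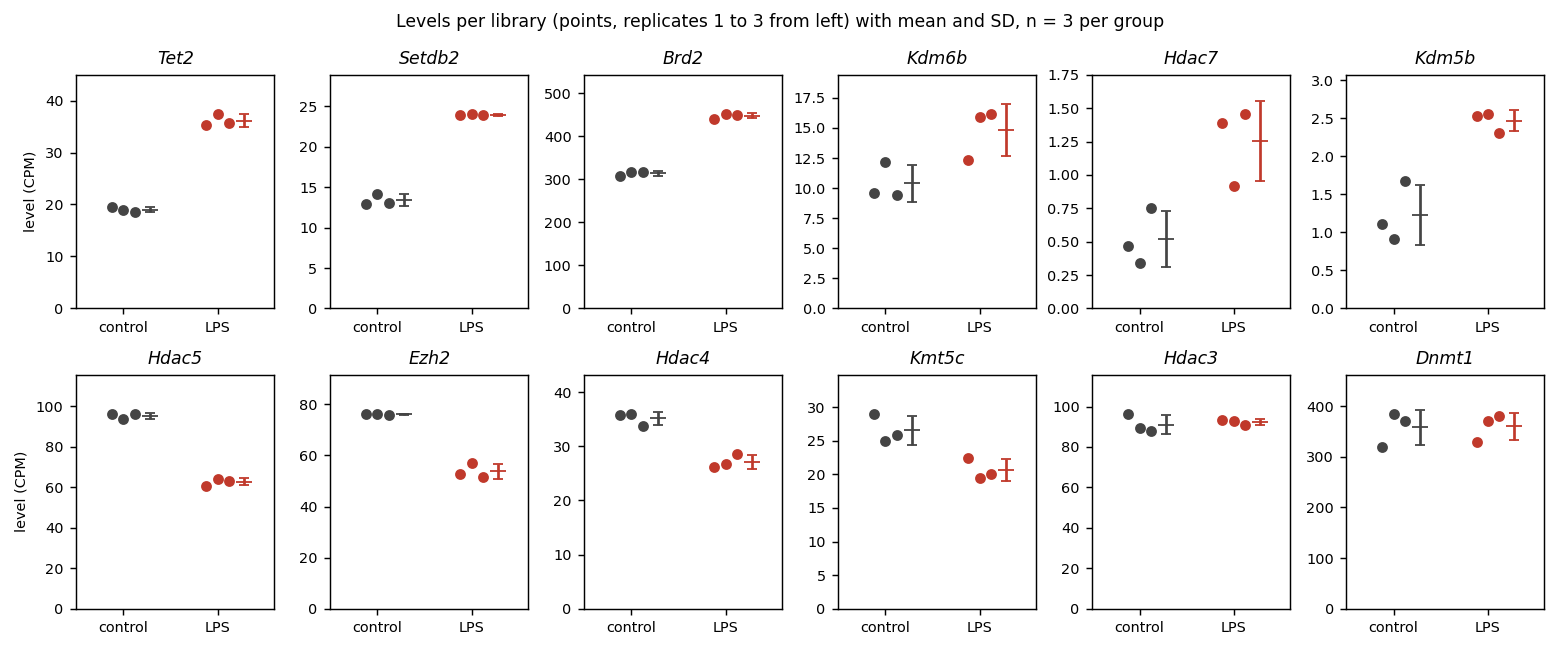
Level in CPM (vertical axis, from 0) of 12 genes in each of the 6 libraries, control in grey and LPS in red, with points for replicates 1 to 3 from left to right and the mean ± SD (n = 3) beside them. Setdb2, Tet2 and Brd2 show tight groups far apart, Hdac7 and Kdm5b are higher with LPS at about 1 to 2 CPM, Hdac5 and Ezh2 are lower, and Hdac3 and Dnmt1 overlap between the groups.

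Among the histone acetyltransferases and the acetyl-lysine readers, Brd2 had the smallest adjusted p. Of 8 acetyltransferase genes, 3 rose and none was called lower by edgeR with TMM scaling or by DESeq2, and the 3 that rose were the only ones at an unadjusted p under 0.05. These 3 of 8 (37.5%) and the 2 of 8 called BRD genes (25.0%) stand beside 34.3% of all tested genes called in either direction. Kat2b (PCAF) rose from 34.1 ± 1.07 to 41.1 ± 1.02 CPM (log2 fold change 0.27, edgeR adjusted p = 0.00443) and Kat6a (MOZ) from 82.1 ± 5.88 to 94.9 ± 3.55 CPM (0.21, adjusted p = 0.00943), a call lost without LPS replicate 2 (adjusted p = 0.0538). Kat2a (GCN5), the most abundant of the class per kilobase, rose from 105 ± 4.07 to 114 ± 2.29 CPM at an adjusted p of 0.0494, and this call was lost in 9 of 15 alternative fits, among them each fit without 1 library except control replicate 2 (adjusted p from 0.0715 to 0.186). Kat7 (HBO1) was at 119 ± 2.90 and 112 ± 4.65 CPM and was not called, although upper-quartile scaling called it lower (adjusted p = 0.0336).

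Brd2 (ENSMUSG00000024335, chr17:34112023-34122634) is a BET protein, which binds acetylated histones and works with the elongation machinery. It was at 308, 318 and 318 CPM in the control libraries and at 441, 453 and 450 CPM in the LPS libraries. The groups were far apart and each was narrow, at a mean of 6440 counts. The log2 fold change was 0.51 (SE 0.04, 95% interval 0.43 to 0.59, edgeR adjusted p = 6.54e-08), 1.42-fold. The BET gene Brd3 was at 61.0 ± 5.54 and 56.5 ± 3.67 CPM and was not called, and its log2 interval of -0.26 to 0.04 does not reach that of Brd2. Of the other Brd genes, Brd8, a subunit of the TIP60 acetyltransferase complex, fell from 77.9 ± 1.16 to 66.9 ± 3.43 CPM (log2 fold change -0.22, adjusted p = 0.00425) and Brd7, of a SWI/SNF complex, was at 126 ± 3.69 and 122 ± 3.70 CPM and was not called. Brd3os entered by its name and biotype but is the opposite-strand neighbour of Brd3 and no bromodomain gene, and it was not called.

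Of the 10 tested HDAC genes, Hdac4, Hdac5, Hdac6 and Hdac9 fell and Hdac7 rose, 5 of 10 against 34.3% of all tested genes called in either direction. A difference between the HDAC classes was not tested. Class I, the nuclear deacetylases Hdac1, Hdac2, Hdac3 and Hdac8, had 0 of 4 genes called by edgeR or DESeq2 and 0 at an unadjusted p under 0.05. Hdac3, the catalytic subunit of the NCoR corepressor complex, was at 91.1 ± 4.66 and 92.4 ± 1.35 CPM (log2 interval -0.08 to 0.13), and Hdac2 was at 93.2 ± 1.64 and 89.3 ± 4.0 CPM. All 4 class IIa genes were called by edgeR, and 3 of them (not Hdac7) by DESeq2, beside 34.3% and 28.9% of all tested genes. These encode signal-responsive proteins that shuttle between nucleus and cytoplasm and have little deacetylase activity of their own.

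Hdac5 (ENSMUSG00000008855, chr11:102194432-102230166) was at 96.2, 93.6 and 95.9 CPM in the control libraries and at 60.7, 64.2 and 63.0 CPM with LPS. The groups were widely separated. Hdac5 fell by 0.60 on the log2 scale (SE 0.05, 95% interval -0.71 to -0.50, edgeR adjusted p = 1.12e-07), the largest fall among the 83 genes. Hdac4 fell from 35.2 ± 1.2 to 27.2 ± 1.3 CPM (log2 fold change -0.37, adjusted p = 0.00094) and Hdac9 from 35.4 ± 2.92 to 29.0 ± 1.37 CPM (-0.29, adjusted p = 0.0102). The class IIb gene Hdac6, a cytoplasmic tubulin deacetylase, fell from 37.5 ± 1.98 to 30.7 ± 1.74 CPM (-0.29, adjusted p = 0.00603), and Hdac10 was not called.

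Hdac7 (ENSMUSG00000022475, chr15:97792664-97844502) went the other way at a level near the detection limit. Counts were 8, 6 and 14 in control replicates 1 to 3 and 22, 15 and 24 in LPS replicates 1 to 3, a mean of 14.8, the lowest of the tested members. The highest control library and the lowest LPS library differed by 1 count. The log2 fold change was 1.25 (SE 0.40, 95% interval 0.39 to 2.12, edgeR adjusted p = 0.0264). DESeq2 gave an adjusted p of 0.102, and the call was also lost without control replicate 1 or 2 or LPS replicate 1 or 3, with adjusted p from 0.0803 to 0.114. Without control replicate 3 its log2 fold change was 1.62, past the 1.5 threshold. Its exons share 29 bases with Slc48a1 on the opposite strand, a gene with a mean of 3320 counts, and whether counting used strand is not given in the sources used here.

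The sirtuins, NAD-dependent deacylases, had 0 of 7 genes called by edgeR with TMM scaling or by DESeq2, with 2 (28.6%) at an unadjusted p under 0.05. Of all tested genes, 34.3% were called by edgeR and 28.9% by DESeq2, and 42.8% had an unadjusted p under 0.05. Those 2 sirtuins were the mitochondrial Sirt3 and Sirt5. Sirt3 was at 9.04, 8.95 and 9.08 CPM in control cells and 8.04, 6.40 and 6.75 CPM with LPS, groups that did not overlap, at a log2 difference of -0.35 (95% interval -0.64 to -0.07) and an edgeR adjusted p of 0.0507. It was called lower in 4 of 15 alternative fits, with RLE or upper-quartile scaling, with protein-coding genes alone and without LPS replicate 1 (adjusted p from 0.0247 to 0.047). Its exons overlap opposite-strand Psmd13 and Ric8a. Sirt5 was at 9.73 ± 0.948 and 7.45 ± 1.74 CPM (adjusted p = 0.0768) and was called lower in 4 fits, with upper-quartile scaling, with no filter, with the replicate block and without LPS replicate 2 (0.00995 to 0.0468). Sirt1, the nuclear deacetylase of p53 and NF-κB, was at 31.1 ± 1.70 and 30.3 ± 3.69 CPM, and Sirt2 and Sirt7, the most abundant of the family per kilobase, had log2 intervals of -0.05 to 0.17 and -0.15 to 0.10.

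Among the genes of DNA methylation, both tested TET genes rose and none of the 4 tested DNA methyltransferase genes was called with all 6 libraries by edgeR with TMM scaling and no block or by DESeq2. Over all tested genes edgeR called 18.7% higher and 34.3% in either direction, and the difference between these small families was not tested. Tet2 (ENSMUSG00000040943, chr3:133463679-133545139), which oxidises 5-methylcytosine and is known to restrain inflammatory cytokine genes in macrophages, was at 19.5, 19.0 and 18.5 CPM in the control libraries and at 35.2, 37.5 and 35.6 CPM with LPS. Both groups were narrow and far apart. The log2 fold change was 0.93 (SE 0.07, 95% interval 0.77 to 1.09, edgeR adjusted p = 1.55e-07), 1.90-fold. Tet3 was at 86.6, 98.4 and 89.6 CPM in control cells and at 95.4, 116 and 117 CPM with LPS. The Tet3 groups overlapped, since LPS replicate 1 was below control replicate 2, and its call (log2 fold change 0.26, adjusted p = 0.0125) was lost in 3 of 15 alternative fits, without control replicate 3, LPS replicate 2 or LPS replicate 3 (adjusted p from 0.0662 to 0.0752). Tet3 remained the more abundant per kilobase, at 6.54 against 2.14 CPM per kilobase with LPS.

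Dnmt1, the maintenance methyltransferase, was abundant and level. It was at 320, 385 and 370 CPM in the control libraries and at 330, 370 and 380 CPM in the LPS libraries. The groups overlapped over nearly their whole range, and the log2 fold change was 0.00 with a 95% interval of -0.14 to 0.14. The de novo methyltransferase gene Dnmt3a was at 264 ± 8.93 and 246 ± 8.30 CPM, a log2 difference of -0.10 with an edgeR adjusted p of 0.102 and the 1 unadjusted p under 0.05 in this class. Dnmt3a was called lower with upper-quartile scaling (adjusted p = 0.0167), with the replicate block (0.0487) and without control replicate 1 (0.0334). Dnmt3b and Dnmt3l, the catalytically inactive cofactor, were not called. Among the 16 tested partners of DNA methylation, 6 rose (37.5%, against 18.7% of all tested genes) and 3 fell (18.8%, against 15.7%). The number of rises was 4 without control replicate 1 and 5 without any other 1 library. Over all genes tested in these fits, 14.7% to 17.2% were called higher. With upper-quartile scaling 5 partners rose and 4 fell. The growth arrest and DNA damage genes Gadd45g and Gadd45a, which have been linked to active demethylation, rose by 1.29 and 1.19 on the log2 scale from 2.85 ± 0.409 and 1.15 ± 0.305 CPM, and Gadd45b rose by 0.66 from 40.6 ± 2.44 CPM. Uhrf1, which brings Dnmt1 to hemimethylated DNA, fell from 244 ± 4.72 to 172 ± 7.12 CPM and the remodeler gene Hells from 145 ± 4.69 to 105 ± 3.20 CPM (edgeR adjusted p = 5.79e-07 and 1.53e-06).

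Of the 7 tested arginine methyltransferases, 1 rose and 1 fell, 28.6% against 34.3% of all tested genes called in either direction. Prmt2 rose from 37.5 ± 1.66 to 48.7 ± 5.62 CPM (log2 fold change 0.38, edgeR adjusted p = 0.0019), and Prmt7 was called lower at 93.3 ± 1.59 and 81.3 ± 6.27 CPM (-0.20), a call lost without LPS replicate 3 (adjusted p = 0.0715). Prmt1 and Prmt5, the main enzymes of asymmetric and symmetric arginine dimethylation, were not called, with log2 intervals of -0.13 to 0.10 and -0.07 to 0.16. Of 7 tested partner genes of arginine methylation, none was called by edgeR, 1 had an unadjusted p under 0.05, and DESeq2 called 0, beside 34.3%, 42.8% and 28.9% of all tested genes.

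Levels can be compared between genes per kilobase of the gene length in the deposited table. In control cells Prmt1 was the most abundant of the 88 genes at 75.3 CPM per kilobase, followed by Kmt5a at 50.5, Dnmt1 at 48.6 and Brd2 at 43.2. The control libraries of Kmt5a (49.5 to 52.3) and Dnmt1 (43.4 to 52.2) overlapped, as did those of Dnmt1 and Brd2 (42.3 to 43.7). With LPS, Brd2 stood at 60.6 to 62.2, above both Kmt5a (44.7 to 50.9) and Dnmt1 (44.7 to 51.5) and below Prmt1 (72.4 to 77.0). Summed over all members, the level was 846 to 862 CPM per kilobase in control cells and 863 to 873 with LPS. The BRD genes summed to 113 to 117 in control cells and 129 to 133 with LPS (70.5 to 73.0 and 68.6 to 70.4 without Brd2), the acetyltransferases to 108 to 111 and 113 to 116, the HDAC genes to 83.7 to 89.7 and 78.0 to 81.1, and the TET genes to 6.35 to 7.02 and 7.81 to 9.15, ranges that did not overlap. For the DNA methyltransferases (65.8 to 75.8 and 67.9 to 75.5) and the sirtuins (36.8 to 38.5 and 37.5 to 37.9) they did, as for the lysine methyltransferases, lysine demethylases and arginine methyltransferases. All these sums rest on TMM scaling. They were not computed with upper-quartile scaling, which shifted the median log2 fold change over all tested genes from 0.0036 to -0.0449.

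Ratios of opposing or paralogous genes per kilobase, in pairs picked after their values were seen and therefore without a test, show the balance in each library. The ratio of Kdm6b to Ezh2 was 0.120, 0.153 and 0.120 in control cells and 0.225, 0.268 and 0.302 with LPS. The ratio of Setdb2 to Setdb1 was 0.384 ± 0.0251 and 0.667 ± 0.00428, and that of Tet2 to Dnmt3a 0.0711 ± 0.00387 and 0.145 ± 0.00382. Brd2 to Brd3 went from 5.22 ± 0.494 to 8.0 ± 0.449 and Hdac5 to Hdac3 from 0.480 ± 0.0218 to 0.311 ± 0.0112. These are mRNA ratios and do not give enzyme activity.

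The complexes in which these enzymes act were described with 13 lists of other genes, 208 of them tested. Of these 31 rose (14.9%, against 18.7% of all tested genes) and 47 fell (22.6%, against 15.7%), and with upper-quartile scaling 22 rose and 66 fell. The SWI/SNF remodeler list had 7 down-regulated (31.8%) and 0 up-regulated genes of 22 by edgeR, among them the accessory subunit Bcl7a (-0.52 on the log2 scale) and the ATPase Smarca2 (-0.36). The COMPASS partners had 3 down-regulated (27.3%) and 0 up-regulated genes of 11, led by the chromatin reader Psip1 (-0.44) and Paxip1 (-0.28). The number of SWI/SNF falls was 10 without control replicate 1 and 5 without any other 1 library. The COMPASS falls numbered 2 or 3 without 1 library. Over all genes tested in these fits, 12.4% to 15.4% were called lower. In either direction, 9 SWI/SNF and 5 COMPASS genes had an unadjusted p under 0.05, and DESeq2 called 5 and 2. As shares these are 40.9% and 45.5% against 42.8% of all tested genes, and 22.7% and 18.2% against 28.9%. The HDAC complex partners had 5 up-regulated and 8 down-regulated (32.0%) genes of 25, with the scaffold Sin3b rising by 0.37 and Trerf1 falling by 0.45. Leaving out 1 library gave 2 up-regulated HDAC partners without LPS replicate 1, 3 without control replicate 1, control replicate 3 or LPS replicate 2, and 4 or 5 otherwise. Gatad2a, Mbd2 and Mier1, picked after their values were seen, lost the call without control replicate 1 or LPS replicate 1. The edgeR adjusted p-values were 0.182, 0.108 and 0.073 without control replicate 1, and 0.0599, 0.077 and 0.0678 without LPS replicate 1. Gatad2a also lost it without control replicate 2 (edgeR adjusted p = 0.097), control replicate 3 (0.0658) or LPS replicate 2 (0.206). Its call was likewise lost with DESeq2 (adjusted p = 0.0613) and in edgeR with RLE (0.058) or upper-quartile scaling (0.181). Mbd2 lost it further without control replicate 3 (edgeR adjusted p = 0.0817) or LPS replicate 2 (0.186) and with upper-quartile scaling (0.0884). The acetyltransferase complex partners had 6 up-regulated and 5 down-regulated genes of 33. The largest called changes were log2 fold changes of 0.66 for Jade2 and -0.57 for the TIP60 subunit Mrgbp. The 6 up-regulated genes became 4 with DESeq2, upper-quartile scaling or no filter, and without control replicate 3 or LPS replicate 2 or 3. The 5 down-regulated genes became 3 without control replicate 3, LPS replicate 1 or LPS replicate 3.

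Of 18 tested genes of P-TEFb and transcript elongation, to which BET proteins bind, 4 rose and 2 fell. The call of the elongation factor gene Supt5 (-0.13 on the log2 scale) was lost without control replicate 2 or 3 or any 1 LPS library (edgeR adjusted p from 0.0565 to 0.108). This list and the others below stand beside 18.7% higher and 15.7% lower over all tested genes. Ell2 rose from 152 ± 3.20 to 284 ± 5.18 CPM (log2 fold change 0.90, edgeR adjusted p = 3.25e-10) and Aff1 from 92.1 ± 11.1 to 159 ± 6.58 CPM (0.78, adjusted p = 4.73e-07), both subunits of the super elongation complex. The other bromodomain genes had 2 up-regulated (8.33%) and 7 down-regulated (29.2%) of 24, with 11 down-regulated without control replicate 1. Sp140, an interferon-responsive nuclear body protein with a bromodomain, had the largest change of the 208 genes, from 26.1 ± 0.668 to 102 ± 5.14 CPM (1.97, adjusted p = 1.54e-12), and Brdt, a BET gene known from testis, fell from 6.77 ± 0.566 to 3.74 ± 0.685 CPM (-0.85, adjusted p = 0.00146). PRC1 had 2 up-regulated and 1 down-regulated gene of 18, with Rybp at 0.46 and Cbx6 at -0.67, and 1 to 3 up-regulated and 1 or 2 down-regulated without 1 library. The other lysine methyltransferases had 4 and 4 of 16, with Dot1l, which methylates H3K79, at 0.43 and Setmar at -0.58. Of the 4 rises, 3 (Nsd3, Smyd5 and Prdm2, picked after their values were seen) lost the call in several fits, all of them with upper-quartile scaling. The Smyd5 call was also lost with DESeq2, with no filter and in each of the 6 fits without 1 library (edgeR adjusted p from 0.0592 to 0.111). Nsd3 lost it with DESeq2, with RLE scaling and without control replicate 1 or 3 or LPS replicate 2 or 3 (0.0996 to 0.208), and Prdm2 without control replicate 1 or 3 or LPS replicate 3 (0.0817 to 0.0926). DESeq2 kept 5 of the 8 calls. The Setmar call was lost with DESeq2 (adjusted p = 0.108) and without any 1 library other than LPS replicate 3 (0.0624 to 0.156). The other demethylases had 2 and 1 of 9, with Phf2 at -0.31 and Hr at 1.93 from 1, 6 and 4 counts to 14, 11 and 14. The Hr call was lost with DESeq2 (adjusted p = 0.0575) and without control replicate 1 (0.0535), and that of Riox2, the other gene called higher, without control replicate 2 or 3 or LPS replicate 3 (0.0868 to 0.0926). The other acetyltransferases had 1 and 3 of 9, and the nuclear receptor coactivators Ncoa2 and Ncoa1 fell by 0.44 and 0.40 on the log2 scale.

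**Figure D3:**
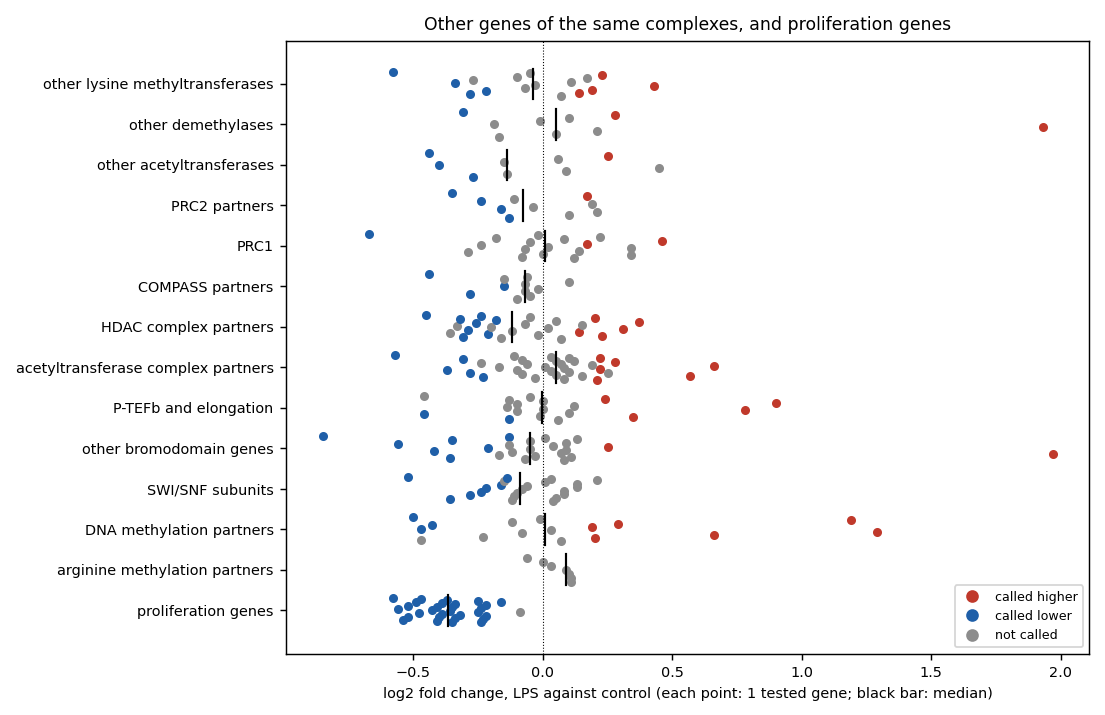
Log2 fold change of LPS against control (horizontal axis) for each tested gene of 13 lists of complex partners and related enzymes and of 30 proliferation genes, with a black bar at each list's median; red is called higher, blue called lower, grey not called. Most lists straddle 0, Sp140 and Hr lie near 2, and the proliferation genes lie below 0.

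Genes of cell division moved together with some of these changes. Of 30 proliferation genes, such as Mki67, Top2a and Mcm2, 29 were down-regulated by edgeR, beside 15.7% of all tested genes, and Aurka was not called. Mki67 lost its call with robust dispersion (adjusted p = 0.122), Cdc6 without LPS replicate 1, Cdc20 without LPS replicate 3, and Gins2 with DESeq2 and without control replicate 2 or LPS replicate 3. The list had a median log2 fold change of -0.37 against 0.0036 over all tested genes. Their summed level was 6500 to 6730 CPM in the control libraries and 5120 to 5170 CPM in the LPS libraries. Ezh2, Suz12, Uhrf1 and Hells, whose expression is known to be high in dividing cells, fell by 0.35 to 0.50 on the log2 scale, and Dnmt1, also known from dividing cells, was level. The part of cell division in the falls of these genes was not tested.

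Replicate 1 differed from replicates 2 and 3 by gene length, in both groups and in the same direction. Of the 23 tested members with a length of at least 10000 bases, replicate 1 was below the mean of the other libraries of its group for 17 in control cells and 20 with LPS, with median log2 ratios of -0.12 and -0.09. Of the 23 members under 5000 bases it was below for 8 and 6, with medians of 0.04 and 0.07. Over all tested genes the medians were -0.10 and -0.06 for the longest class and 0.03 and 0.02 for the shortest. Kmt2a, for example, was at 34.9, 49.2 and 42.7 CPM in control cells and 31.3, 44.5 and 47.6 CPM with LPS, and Kmt2d at 58.3, 80.5 and 73.8 CPM and 60.9, 80.8 and 92.2 CPM. In each of these sets replicate 1 was the lowest. The replicate 1 libraries occur in both groups, and the spread of the long genes, Kmt2a, Kmt2c, Kmt2d and Tet3 among them, includes this difference.

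**Figure D4:**
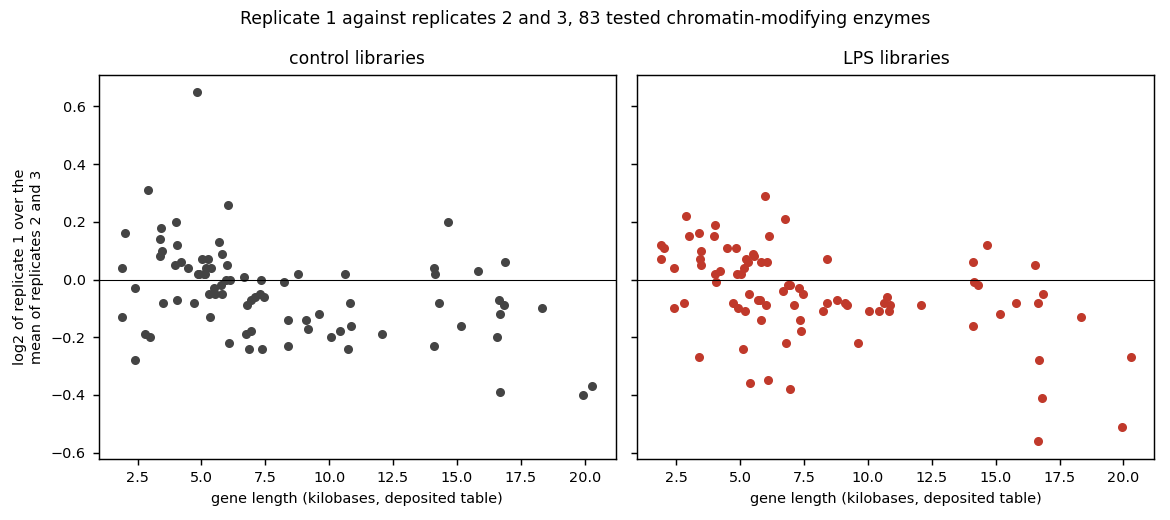
Log2 ratio of the CPM in replicate 1 to the mean of replicates 2 and 3 of the same group (vertical axis) against gene length in kilobases (horizontal axis) for the 83 tested genes, control libraries left and LPS libraries right. Points fall from near or above 0 for short genes to below 0 for long ones in both panels.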

How the data were processed

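RNA-seq libraries of 3 control and 3 LPS-stimulated samples of N9 microglia were made, sequenced and processed by Novogene for the study. The authors deposited raw read counts per gene, whole numbers without normalization, and a gene length in bases. The submitters' processing notes name featureCounts 1.5.0-p3 and mm10. The aligner, annotation release and use of strand are not given in the sources used here. The authors' own DESeq2 comparison table (fold changes, p-values and 18 columns of values per sample) was not used.

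Counts were tested with edgeR 4.0.16 under R 4.3.3 (glmQLFit and glmQLFTest, TMM factors from 0.9646 to 1.036, filterByExpr by group, prior count 0.125, no replicate term), with Benjamini-Hochberg adjustment over the 12296 genes tested. The SE is the log2 fold change divided by the square root of F, and 95% intervals use 2.14 SE. CPM were computed on TMM-normalised library sizes, and CPM per kilobase with the deposited length. The reads carry no molecular identifiers, so floors of 3 counts cover counting error only. Libraries of the same group differed beyond sampling noise in all pairs (chi-square per gene 3.61 to 7.82), and each was counted as a sample.

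The members, lists and rules were chosen with earlier results of these data known. Genes named are the 12 largest rises and 12 largest falls among called members, the 2 most abundant members of each class per kilobase, 15 enzymes known from LPS responses or as their paralogs, members below the filter, and the 2 called genes with the largest change in each partner list. Other genes named were picked after their values were seen. The values of 1 member are not reported here, although it is in the counts. Gene positions are those of the deposited table, and 53462 of 54409 genes shared with GENCODE M21 (GRCm38), 86 of the 88 members among them, have the same positions there. Promoters are from RefSeq on GRCm38.p6. Alternatives were DESeq2 1.42.0, RLE and upper-quartile factors, no filter, a filter at a mean of 10 counts, robust dispersion, a prior count of 2, a replicate block, protein-coding genes alone, and each library left out in turn. The fits were tested on simulated data. Other software was Python 3.11.15, pandas 2.3.3 and matplotlib 3.10.9.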

Additional observations from a re-analysis of the deposited data

How the results depend on the processing

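Of the 29 called enzymes, 19 were called in the same direction in all 15 alternative fits (9 up-regulated, among them Tet2, Setdb2, Brd2 and Kdm6b, and 10 down-regulated, among them Hdac5 and Ezh2). The other 10 lost the call in at least 1 fit. Over all tested enzymes and these fits, a call was lost 44 times, gained 22 times and turned to the other direction 0 times.

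Leaving out each library in turn gave 10 to 17 up-regulated enzymes, with 10 without LPS replicate 2 and 11 without control replicate 1, and 11 to 16 down-regulated ones. The number past a log2 fold change of 1.5 ran from 0 to 1, the 1 being Hdac7 without control replicate 3. The cause was not tested. DESeq2 called 13 up-regulated and 11 down-regulated enzymes, all 24 among the 29. For partner genes, the counts ran from 21 to 28 up-regulated and from 36 to 55 down-regulated without 1 library.

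Same-numbered libraries of the groups shared little over all tested genes: their deviations from the group means correlated at 0.14, 0.06 and 0.00. The 0.14 was that of the replicate 1 libraries, which also shared the difference by gene length given above. The numbers were not taken as pairs in the main fit, and control replicate 2 deviated more like LPS replicate 3 (0.09). A fit with the replicate block called 16 up-regulated and 15 down-regulated enzymes, 31 in all, of which 29 were those called without it and the other 2 were Sirt5 and Dnmt3a. For Hdac7 and Kdm5b, with means of 14.8 and 31.0 counts, the 95% interval spans more than 1 log2 unit.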
